A study of Mus musculus with 33 samples.

Results

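The genes described here encode the proteins of the cytosolic ribosome, whose messengers were read in right hippocampus from 33 male mice on Affymetrix MOE430 2.0 arrays, each animal having 1 array. Members were taken by symbol: single-gene probe sets named Rpl or Rps followed by a number, with Rpsa and the stalk proteins Rplp0, Rplp1 and Rplp2, leaving out pseudogenes and the S6 kinases. This gave 49 genes of the 18194 named by a single-gene probe set, 26 of the large and 23 of the small subunit. Each gene was read by its probe set of highest mean signal, and 46 of the 49 passed the filter on low signals (24 large, 22 small), among 12760 genes tested. Rps16, Rpl3l and Rpl39l did not pass. The rule itself uses names and mean signal only, but the set was proposed with earlier results of these data known.

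The 3 groups held 11 animals each. Wild-type littermates received vehicle (2% Tween 80 with 0.5% sodium carboxymethylcellulose), Tg2576 mice received the same vehicle, and further Tg2576 mice received TO901317 by oral gavage at 50 mg per kg per day. Tg2576 mice were heterozygous for human APP with the Swedish mutation of familial Alzheimer's disease, driven by the prion promoter, and all animals shared a mixed SJL × C57BL/6J background. TO901317 activates the liver X receptors, nuclear receptors for oxysterols. All animals were 20 weeks old and were killed 1 hour after the last dose. Dosing lasted 7 days by the design text and 5 days by the treatment protocol. Wild-type animals given TO901317 are not analysed here, and the drug comparison is within Tg2576 only.

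Each cytosolic ribosome joins a large subunit, which forms peptide bonds, to a small subunit, which reads the message. Nearly every ribosomal protein is present in a single copy per ribosome, and cells keep the production of these proteins in balance. Their messenger RNAs begin with a 5′ terminal oligopyrimidine tract (TOP), through which the kinase complex mTORC1 controls their translation, so messenger level and protein output can part. In neurons ribosomes also serve local protein synthesis in dendrites. Many ribosomal protein genes have processed pseudogenes and a few have paralogues with a narrower tissue range.

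The starts of the member genes are shown because the pyrimidine tract is the feature that the class is known for. RefSeq windows of assembly GRCm38.p6 were found for 43 of the 49 members, 51 windows in all, each covering 250 bases before and 50 bases after an annotated start. The lines below give 15 bases before and the first 15 bases of the transcript, in its own direction. Capitals mark a run of 8 or more C or T that lies within 5 bases of the start. The first 4 genes have such a run and the last 4 have none.
Rpl7a: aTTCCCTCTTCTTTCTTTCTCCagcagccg
Rpl35: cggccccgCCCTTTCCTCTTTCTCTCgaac
Rps10: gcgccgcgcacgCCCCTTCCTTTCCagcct
Rps6: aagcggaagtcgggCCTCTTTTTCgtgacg
Rps3: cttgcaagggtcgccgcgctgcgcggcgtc
Rps28: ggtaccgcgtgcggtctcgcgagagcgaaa
Rps25: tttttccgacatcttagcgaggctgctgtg
Rpl37: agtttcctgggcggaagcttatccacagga

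These stretches lie at chr2:26910792-26910821 on the plus strand (Rpl7a), chr2:39005117-39005146 on the minus strand (Rpl35), chr17:27635230-27635259 on the minus strand (Rps10) and chr4:86857353-86857382 on the minus strand (Rps6). Those without a run lie at chr7:99483695-99483724 on the minus strand (Rps3), chr17:33824548-33824577 on the minus strand (Rps28), chr9:44407699-44407728 on the plus strand (Rps25) and chr15:5116598-5116627 on the plus strand (Rpl37). The marked runs are 21 bases long in Rpl7a, 18 in Rpl35, 13 in Rps10 and 10 in Rps6. Annotated starts can differ from the start used in hippocampus, which was not measured.

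A run of 8 or more pyrimidines at the start was present in 18 of the 51 member windows, or 35.3%, against 9.72% of all 32851 windows and 9.78% of the 21263 windows of protein-coding genes. Other short motifs were searched on both strands of the same windows. CCGGAAG, the core bound by ETS factors, was present in 21 member windows (41.2%, against 8.86% of all and 11.6% of protein-coding windows). TCTCGCGA, a motif of housekeeping promoters, was present in 10 (19.6%, against 0.995% and 1.41%). AAGATGG, the core of the YY1 motif, was present in 15.7% against 6.34% and 6.24%, and its first letters can overlap the end of the ETS core. The GC box, GGGCGG, was present in 52.9% against 35.7% of all windows, but 46.2% of protein-coding ones. The box named for its letters CCAAT was present in 27.5% against 37.4% and 38.2%. The TATA box, searched as TATAAA, was present in 11.8% against 13.6% and 12.6%. These matches describe the windows and are not evidence of binding.

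The deposited signals were on a linear scale. Each array had the same trimmed mean, 99.97, while the median signal ranged from 19.4 to 28.9. All results below are on log2(signal + 16), and a probe set had to exceed a signal of 13.3 on average to be tested. Of the hippocampal markers, 10 of 10 for dentate granule cells and 10 of 10 for CA pyramidal cells passed the filter. The 12 meningeal markers and the 11 thalamus and striatum markers named on the array passed too, so passing does not identify the tissue. Carry-over from neighbouring tissue varied between animals, with summed choroid plexus markers from 204 to 11330. Vehicle Tg2576 replicates 3 and 4 stood apart in the 3′ to 5′ ratio of Gapdh, and results are given without them where that changes a direction. The whole hippocampus was measured, so fewer cells of a type and less RNA per cell cannot be told apart.

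Vehicle Tg2576 and wild type were compared first, which asks what the transgene does at this age. No member passed the test in this comparison (0 of 46 at adjusted p under 0.05, limma with Benjamini-Hochberg adjustment over 12760 genes), against a background of 0.235% of genes called (30 genes). At an unadjusted p under 0.05, 1 of 46 members was found against 11.9% of all genes. The exact rank-sum test on the same genes called 0 members as well. The log2 difference was below 0 for 39 of 46 members, against 47% of all genes, with a median of -0.044 beside 0.0066 over all genes tested. After quantile normalization, which makes the distribution of signals the same on all arrays, 27 of 46 lay below 0 with a median of -0.0078. With the marker scores of choroid plexus, oligodendrocytes and astrocytes as covariates only 10 of 46 did, with a median of 0.048, so the direction turned. Astrocyte and oligodendrocyte markers had medians of -0.17 and -0.16 in this comparison, and their part in the members' values was not tested further.

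Rpl37, a zinc-binding protein of the large subunit, had the lowest difference. Its signal ran from 323 through a median of 422 to 507 in wild type, and from 289 through 357 to 474 in vehicle Tg2576. The ranges overlapped, and the log2 difference was -0.19 ± 0.085 (SE, n = 11 and 11) with an adjusted p of 0.357 in limma. With TO901317 its signal ran from 289 through 399 to 485, between both other medians.

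Rpl41, which encodes a very short basic peptide, followed with a log2 difference of -0.099 ± 0.082 (SE). Its wild-type signals went from 3745 through 4843 to 5942, and those of vehicle Tg2576 from 2971 through 4403 to 5600. The lowest vehicle Tg2576 animal lay under the whole wild-type range, but most of both ranges overlapped. Rps28, a small protein near the exit of the messenger channel, had -0.088, Rpl4, which lines the exit tunnel, -0.083, and Rps18, of the head of the small subunit, -0.081. The adjusted p-values of these 4 genes in limma were 0.693, 0.478, 0.535 and 0.733, so none passed.

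On the other side of 0, Rps27 had the highest difference, 0.082 ± 0.15 (SE). Its signal ran from 47.3 through 66.4 to 169 in wild type and from 60.3 through 85.9 to 128 in vehicle Tg2576, so the wild-type range enclosed that of the transgenic animals. Rps4l had 0.041, Rpl27 0.040, Rpl22l1 0.033 and Rpl27a 0.011. None passed (lowest adjusted p of these 5 in limma 0.74, for Rpl27). The directions of Rps4l and Rpl27a were not stable: Rps4l read -0.057 without vehicle Tg2576 replicates 3 and 4, and the sign of Rpl27a turned when any of 11 single animals was left out.

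TO901317 and vehicle were then compared within Tg2576, which asks how the tissue responds to the agonist. Again 0 of 46 members passed, against 0.282% of all genes (36 genes). At an unadjusted p under 0.05 there were 2 members, against 11.7% of all genes, and the exact rank-sum test called 0. Of the 46 differences 16 lay below 0, against 54.2% of all genes, and the median was 0.030 beside -0.010 over all genes. This direction turned under 3 alternatives: 27 of 46 lay below 0 after quantile normalization (median -0.013), 25 with marker scores as covariates (-0.0052) and 28 with the array's 99th percentile of signal as covariate (-0.013). This comparison shares its vehicle group with the first one, so the opposite signs of both medians are not independent.

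Rpl37 was the highest in the drug comparison, with a log2 difference of 0.12 ± 0.085 (SE) and an adjusted p of 0.63 in limma. Rps28 had 0.11 ± 0.048 (SE) and Rps10, a protein of the messenger entry side, 0.096 ± 0.044 (SE). These were the 2 members with unadjusted p under 0.05. Rps28 signals ran from 3089 through 3339 to 3826 with vehicle and from 3359 through 3733 to 3861 with TO901317. Rps10 signals ran from 2441 through 2899 to 3195 with vehicle and from 2668 through 3032 to 3417 with TO901317. In both genes the treated median was higher while the ranges overlapped, and the adjusted p-values in limma were 0.365 and 0.385.

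Other probe sets of both genes gave other values. Those of Rps10 read 0.022, 0.030, 0.033, -0.036 and 0.20 in the drug comparison, the last at a mean signal of 15.2, near the filter. Those of Rps28 read 0.048 and 0.027. After quantile normalization the Rps28 difference was -0.0085. Rps15 and Rps14, which lie near the decoding region and on the platform of the small subunit, both had 0.10 (adjusted p 0.544 and 0.5 in limma). Their second bright probe sets read 0.093 and 0.075.

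The lowest drug differences were those of Rpl27a (-0.20 ± 0.19, SE), Rpl14 (-0.15 ± 0.083), Rps25 (-0.13 ± 0.074), Rpl39 (-0.10 ± 0.11) and Rps27 (-0.082 ± 0.15). Rpl14 signals ran from 24.2 through 37.7 to 42.4 with vehicle and from 20.6 through 29.2 to 43.4 with TO901317. Rps25, known for its role in internal ribosome entry, ran from 75.4 through 89.8 to 122 with vehicle and from 69.4 through 87.2 to 102 with TO901317. Ranges overlapped in each of the 5 genes, and none passed (lowest adjusted p in limma 0.49, for Rpl14).

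Treated Tg2576 animals were last compared with wild type, which asks whether the agonist leaves the tissue at the wild-type level. 0 of 46 members passed, against 0.361% of all genes (46 genes), and 2 had an unadjusted p under 0.05, against 9.44%. The exact rank-sum test called 0. Differences lay below 0 in 28 of 46 members, against 51.3% of all genes, with a median of -0.013 beside -0.0025 over all genes. Rps25 had the smallest p. Its wild-type signals ran from 75.8 through 96.5 to 121, its log2 difference was -0.18 ± 0.074 (SE, n = 11 and 11), and its adjusted p in limma was 0.393. Rpl27a had -0.19, Rpl39 and Rpl14 -0.14 each, and Rps27l -0.091. The highest values were 0.095 for Rps10, 0.053 for Rps9, 0.049 for Rps4l, 0.045 for Rps15 and 0.029 for Rpl6. Averaging the probe sets of each gene turned Rps10 to -0.021 and Rps9 to -0.053. An F test over all 3 groups called 0 members, against 0.549% of all genes (70 genes).

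**Figure D1:**
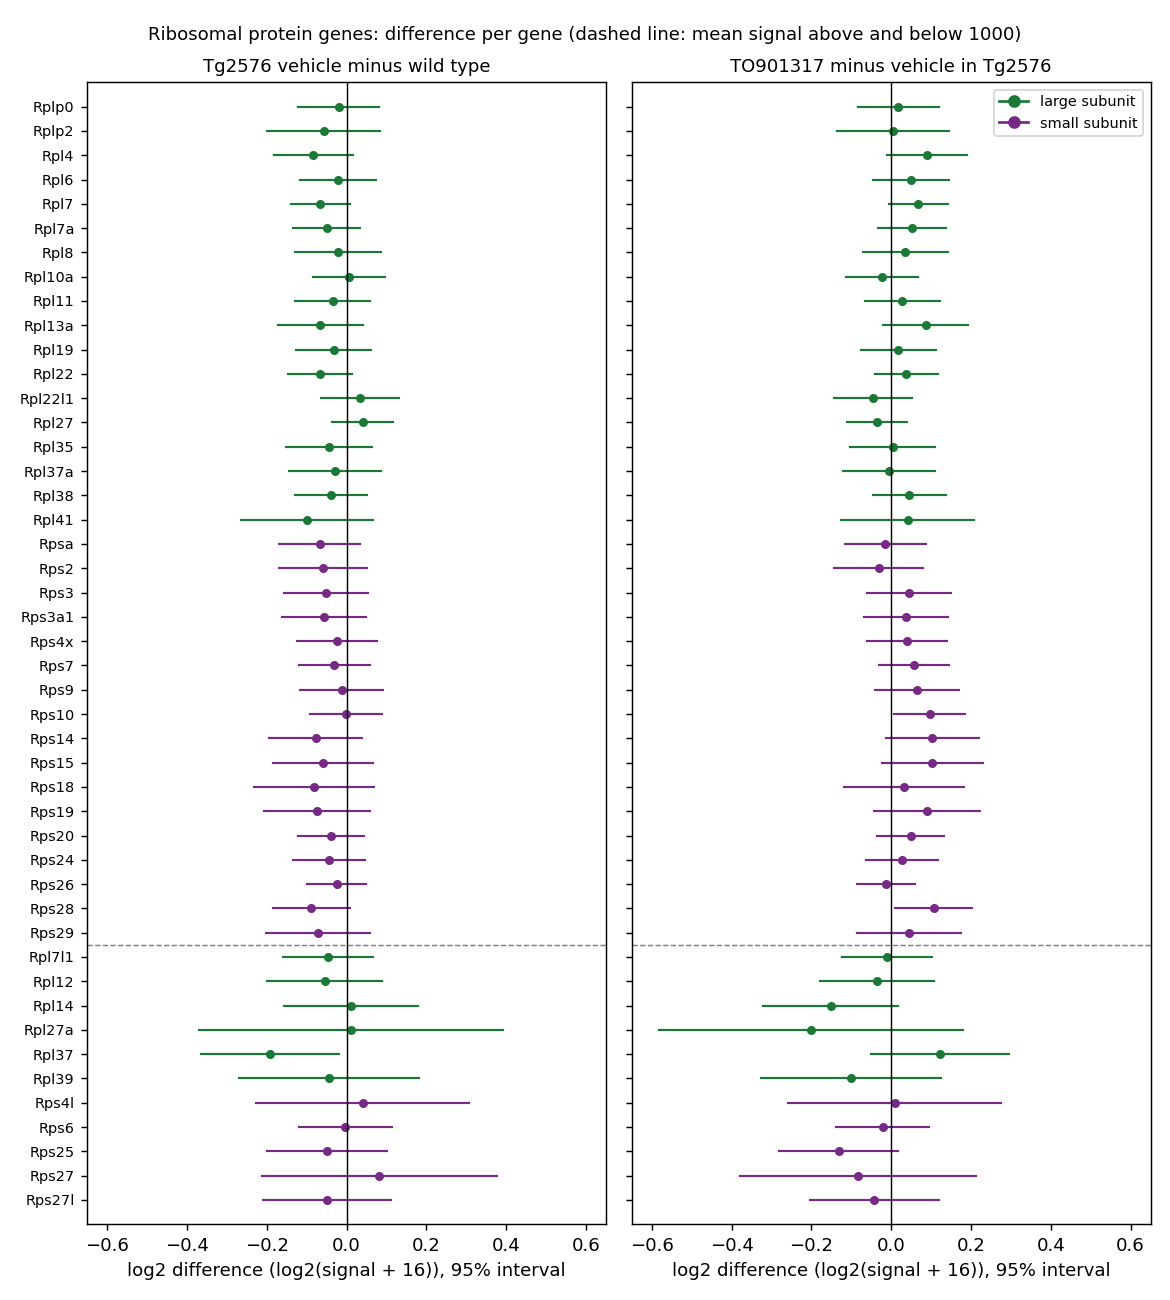
Log2 difference with its 95% interval for each of the 46 tested ribosomal protein genes, vehicle Tg2576 minus wild type on the left and TO901317 minus vehicle within Tg2576 on the right; colours mark the subunit and the dashed line separates the 35 genes of mean signal above 1000 from the 11 below. Most of the upper genes lie just left of 0 on the left and just right of 0 on the right, and the widest intervals belong to the lower genes.

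For the probe set used and in the main fit, the intervals limit the size of a difference. They do not cover the choice of probe set. Other probe sets of these genes ran from -0.39 to 0.22 for genotype and from -0.28 to 0.29 for drug. The half-width of the 95% interval of a member's difference had a median of 0.11 and ran from 0.073 to 0.38. Intervals lay wholly within 0.25 of 0 on the log2 scale for 40 of 46 members in the genotype comparison and for 39 of 46 in each of the others. Both subunits gave like values: the median genotype difference was -0.041 for the 24 large and -0.049 for the 22 small subunit genes, and the median drug difference 0.018 and 0.038.

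Among the functional landmarks of the ribosome no gene passed the test. Rplp0, which anchors the stalk that recruits elongation factors, ran from 1426 through 1611 to 2060 in wild type, from 1489 through 1600 to 1855 in vehicle Tg2576 and from 1548 through 1635 to 1810 with TO901317. The 3 medians lay close together inside overlapping ranges, with log2 differences of -0.019 for genotype and 0.018 for drug. Rplp2, its stalk partner, had -0.058 and 0.0049. Rpsa, the small subunit protein also known as the laminin receptor, had -0.068 for genotype and -0.014 for drug, with median signals of 2295, 2158 and 2190 in the same order of groups.

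Rps6 is the substrate of the S6 kinases and carries the phosphorylation used as a readout of mTORC1. Its messenger ran from 114 through 133 to 148 in wild type, from 109 through 130 to 165 in vehicle Tg2576 and from 113 through 128 to 151 with TO901317. The 3 medians differed by less than the spread in any group, and the log2 differences were -0.0033 and -0.022 (adjusted p 0.992 and 0.928 in limma). The probe set used for Rps6 had a mean signal of 133 and a correlation of 0.12 with the mean of the other members. A further single-gene probe set, at 12.1, lay below the filter. Phosphorylation was not measured on these arrays.

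Paralogue-type members were examined beside their parents, without setting one probe set's level against another's. Rpl22l1 had a log2 difference of 0.033 for genotype and -0.045 for drug, and its parent Rpl22 had -0.067 and 0.038. Rps27l, a target of p53 in other cells, had -0.049 and -0.042, and Rps27 had 0.082 and -0.082. Rps4l had 0.041 and 0.0088 and Rps4x -0.024 and 0.039. With the probe sets used, paralogue and parent differed in sign in several instances, with no value past the test. These signs depended on the probe set or the animals. Other probe sets of Rpl22 read -0.043 and 0.076 for drug, and those of Rps27l 0.023 and -0.11 for genotype. Rps4l read -0.057 for genotype without vehicle Tg2576 replicates 3 and 4. Rpl7l1, which resembles Rpl7, had -0.047 and -0.011 where Rpl7 had -0.066 and 0.068. Other probe sets of Rpl7l1 read 0.090 and -0.067 for genotype, and 0.026 and 0.29 for drug. Rpl3l, the muscle form of Rpl3, and Rpl39l, the testis form of Rpl39, had mean signals of 4.72 and 5.63, below the filter. Rps16 lay below it too, at 0.776, so its single-gene probe set gave no usable value.

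Most members varied little from animal to animal. The SD within groups had a median of 0.125 on the log2 scale, beside 0.18 over all genes tested. These sets were not matched for signal, whose median was 2229 for members and 127 for all genes. The 11 members of mean signal below 1000, with a median signal of 128, had a median SD of 0.195. Rps26, at the exit of the messenger channel, was the steadiest at 0.076, with signals from 1906 through 2244 to 2447 in wild type, from 2071 through 2128 to 2329 in vehicle Tg2576 and from 2059 through 2123 to 2224 with TO901317. Rpl7, Rpl27, Rpl22 and Rps20 followed with 0.077, 0.081, 0.085 and 0.091. At the other end stood Rpl27a with 0.45, Rps27 with 0.36, Rps4l with 0.33, Rpl39 with 0.28 and Rpl37 with 0.21. Rpl27a ran from 116 through 211 to 318 in wild type, from 122 through 223 to 342 in vehicle Tg2576 and from 78.9 through 173 to 321 with TO901317. Its 3 ranges covered each other almost wholly.

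The members fell into a bright and a dim set with an empty gap between mean signals of 388 and 1587. A probe set's brightness depends on its probes as well as on the transcript, so this is not a division by abundance. The limit of 1000 was set after the values were seen. The 35 bright members had a median SD of 0.12 and the 11 dim ones 0.20. The dim set held Rpl7l1, Rpl12, Rpl14, Rpl27a, Rpl37, Rpl39, Rps4l, Rps6, Rps25, Rps27 and Rps27l.

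Bright and dim members are described apart, with no test of one set against the other. In the genotype comparison 32 of 35 bright members had a difference below 0, with a median of -0.044, and 7 of 11 dim members did, with a median of -0.043. In the drug comparison 28 of 35 bright members lay above 0, with a median of 0.039, while 9 of 11 dim members lay below it, with a median of -0.042. Against wild type, treated animals had 18 of 35 bright and 10 of 11 dim members below 0, with medians of -0.0010 and -0.091.

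A value per animal was made as the mean deviation of the 46 members from their averages over all arrays. It was 0.021 ± 0.098 in wild type (SD, n = 11), -0.018 ± 0.058 in vehicle Tg2576 and -0.0035 ± 0.050 with TO901317, on the log2 scale. Wild-type animals ran from -0.135 through a median of 0.015 to 0.158, vehicle Tg2576 from -0.089 through -0.041 to 0.085, and treated animals from -0.080 through 0.0029 to 0.070. The wild-type range enclosed both others. Wild-type replicates 10 and 5 were the highest of all 33 animals, with 43 and 41 of 46 members above their own means. Wild-type replicates 8 and 11 were the lowest, with 5 and 6 of 46 above.

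**Figure D2:**
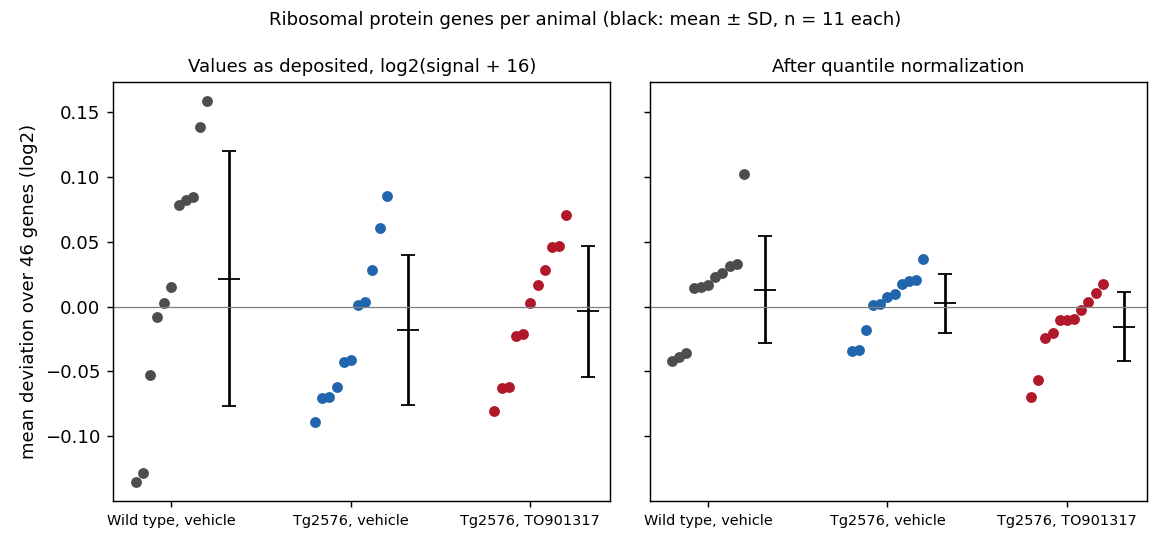
Mean deviation of the 46 ribosomal protein genes in each animal (log2), by group, from the deposited values on the left and after quantile normalization on the right; points are animals, ordered by value within a group, and black marks give the mean ± SD (n = 11 each). The 3 groups overlap in both panels, and the spread narrows on the right, from an SD of 0.098 to 0.041 in wild type.

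Quantile normalization narrowed these values to 0.013 ± 0.041 in wild type, 0.0026 ± 0.023 in vehicle Tg2576 and -0.016 ± 0.027 with TO901317 (SD, n = 11 each). The pooled SD within groups went from 0.072 to 0.031. Wild-type replicate 10 remained the highest animal at 0.102. The median genotype difference of the members went from -0.044 to -0.0078 and the median drug difference from 0.030 to -0.013. Members with a drug difference below 0 went from 16 to 27 of 46.

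Within groups the members went up and down together across animals. Over the 1035 pairs of members the median correlation of deviations from the group means was 0.395 across 33 animals, and 80.4% of pairs were above 0. All genes tested had a median of 0.00857 with 51.5% above 0. The 35 bright members reached a median of 0.612, with 99.2% of pairs above 0, and the 11 dim members had -0.00384. These pairs share the same arrays and their scaling, and the values are given as a description.

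The gene most like the rest was Rps3, a protein of the messenger entry side, with a correlation of 0.923 with the mean of the other members. Rpl35, near the tunnel exit, and Rps26 followed with 0.911 and 0.91. Of the 46 members, 32 were above 0.5, all of them bright. Rpl27a had -0.563, Rpl37 -0.336, Rpl12 -0.306, Rpl39 -0.167 and Rps25 -0.097, all of them dim. The 18 genes with a pyrimidine run at a start had a median of 0.673 (from -0.563 to 0.911), and the 22 with no such run in their windows had 0.775 (from -0.336 to 0.923). Rpl35 and Rps3, whose starts are printed above, stand on either side of that division with nearly the same value.

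**Figure D3:**
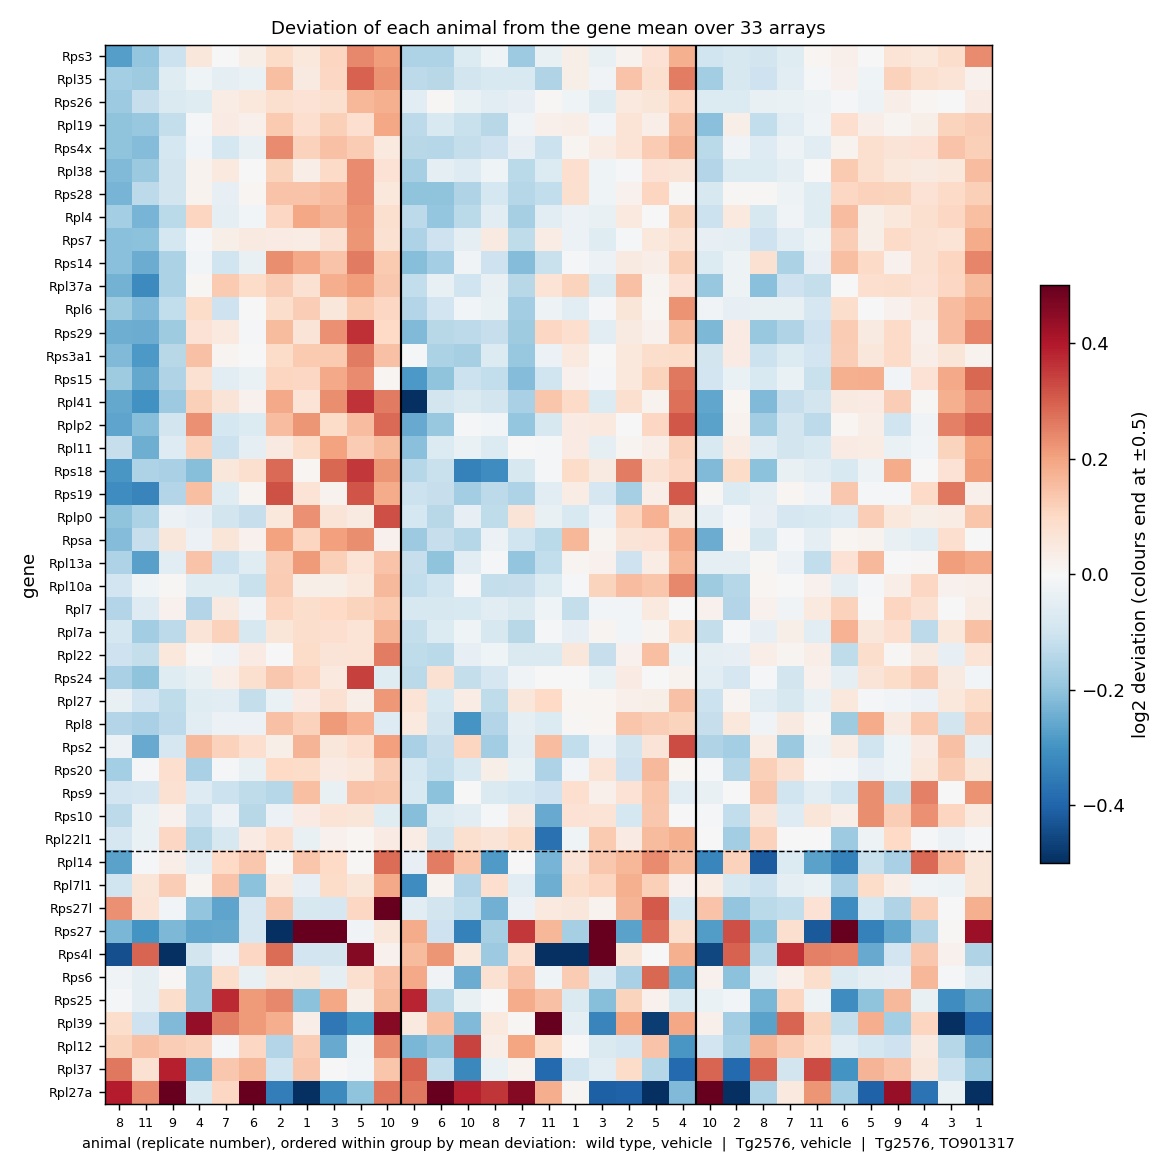
Deviation of each animal (columns, ordered by mean deviation within each group) from the gene's mean over 33 arrays, for the 46 ribosomal protein genes (rows, ordered by correlation with the other members, dashed line between bright and dim), on the log2 scale. Bright genes change colour together from left to right within each group, from 5 of 46 members above their mean in wild-type replicate 8 to 43 in replicate 10, while the dim genes below the line follow less or not at all, from a correlation of 0.47 for Rpl14 to -0.563 for Rpl27a.

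The upper end of the signal scale moved in the same animals. The per-animal mean deviation was correlated with the 99th percentile of signal on the array, taken over probe sets that name no ribosomal protein gene: Pearson's r was 0.809 and Spearman's rho 0.844 over 33 animals. Without the 2 arrays farthest from the median r was 0.791, and within wild type, vehicle Tg2576 and treated animals it was 0.844, 0.921 and 0.853. With the members' value taken after quantile normalization and the percentile left as deposited, r was 0.0803. No p-value is given, since the members were chosen with results known.

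**Figure D4:**
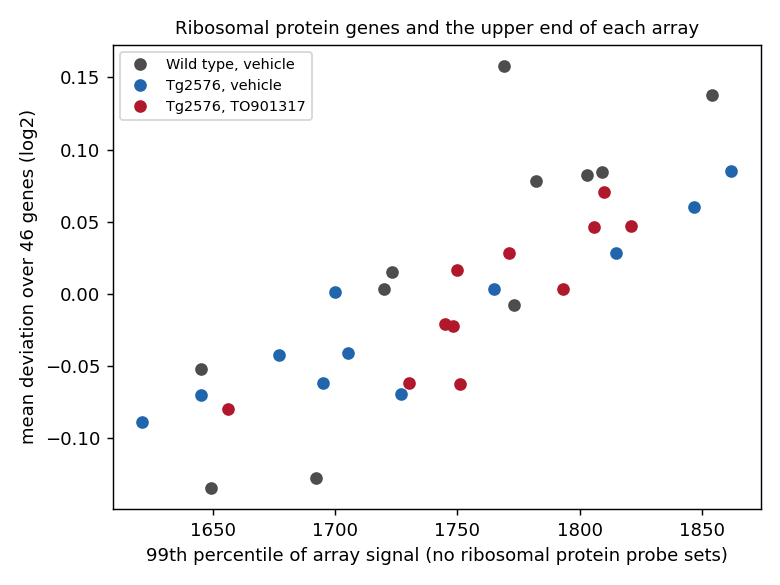
Mean deviation of the 46 ribosomal protein genes in each animal (log2) against the 99th percentile of the array's linear signal over other probe sets; points are animals, coloured by group. The points rise from lower left to upper right in each group (r = 0.809 over 33 animals).

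The correlations between members also shrank after quantile normalization, to a median of 0.0737 for all members and 0.0891 for the bright ones, beside 0.0209 for all genes. The 75 mitochondrial ribosomal protein genes, which build the separate ribosome of mitochondria, went from 0.168 to 0.147, and the 37 proteasome subunits from 0.179 to 0.147. The 3′ to 5′ ratio of Gapdh, a measure of RNA quality, had r = 0.366 with the members' per-animal value over 33 animals, and 0.353, 0.709 and 0.313 within wild type, vehicle Tg2576 and treated animals. That of beta-actin had 0.441 over all, and 0.397, 0.733 and 0.0919 within the groups. The array median had -0.335 over all, and -0.201, -0.75 and 0.14 within the groups. All 3 were thus closest to the members in vehicle Tg2576, the group that the genotype and drug comparisons share. The part of these measures in the members' values was not tested beyond the alternatives listed in the closing section.

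Vehicle Tg2576 had the widest spread in the log2 Gapdh ratio, -0.16 ± 0.14, beside -0.20 ± 0.054 in wild type and -0.22 ± 0.052 with TO901317 (SD). The log2 median signal had an SD of 0.18 in vehicle Tg2576, 0.083 in wild type and 0.080 with TO901317. The group values of the 99th percentile were close. The log2 99th percentile was 10.77 ± 0.056 in wild type, 10.76 ± 0.066 in vehicle Tg2576 and 10.78 ± 0.039 with TO901317 (SD, n = 11 each). With it as a covariate the median genotype difference of the members was -0.029 and the median drug difference -0.013.

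Genes that work with the ribosome were read from lists. The other TOP messengers, such as Eef1a1, Tpt1 and Npm1, followed the members across animals (r = 0.891 over 33 animals, and 0.405 with both quantile-normalized). None of 15 tested of 16 listed passed in any comparison; 13 lay below 0 for genotype (median -0.025) and 4 for drug (median 0.025). Fau, which encodes a small subunit protein fused to a ubiquitin-like protein, had -0.0097 for genotype and -0.015 for drug. Its r was 0.865, and 0.239 with both quantile-normalized. Eif3e, an initiation factor subunit on this list, had 0.12 between treated animals and wild type (adjusted p 0.0853 in limma).

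Ribosome biogenesis factors, which process ribosomal RNA and assemble subunits, had r = -0.0167 with the members' per-animal value. None of 66 tested of 67 passed, with medians of 0.049 for genotype and -0.034 for drug; Ncl, which encodes nucleolin, had 0.17 for drug (adjusted p 0.0748 in limma). RNA polymerase I genes had 0 of 11 past the test (r = 0.237), and Polr1d, a subunit shared with RNA polymerase III, had 0.19 for genotype and -0.22 for drug (adjusted p 0.117 and 0.0748). Initiation factors had 0 of 32 (r = 0.639), with Eif4e, the cap-binding protein, at -0.12 for drug (adjusted p 0.211). Elongation and termination factors had 0 of 11 (r = 0.668), the mTORC1 and S6 kinase pathway 0 of 25 (r = 0.27) and the p90 ribosomal S6 kinases 0 of 3 (r = -0.135). On the deposited values the initiation and elongation factors thus moved with the members across animals, as the TOP messengers did. With both quantile-normalized, r was -0.0799 for initiation factors and 0.187 for elongation and termination factors, beside 0.405 for the TOP messengers. Eif3e is on both the TOP and the initiation list, and the TOP list also holds the elongation factors Eef1a1 and Eef2. The r values of these 3 lists are therefore not independent. In the mTORC1 pathway the smallest p belonged to Eif4ebp1 for genotype (0.31, adjusted p 0.33), Tsc2 for drug (0.16, adjusted p 0.306) and Sesn2 against wild type (-0.48, adjusted p 0.183).

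Mitochondrial ribosomal proteins and proteasome subunits are given beside the members as other large complexes. The mitochondrial ribosomal proteins had a median of 0.072 for genotype, with 8 of 75 below 0, and -0.068 for drug, with 70 of 75 below 0. 1 of the 75, Mrpl36, fell with TO901317. Proteasome subunits had 0.073 for genotype, with 3 of 37 below 0, and -0.027 for drug, with 29 of 37 below 0. The cytosolic members had -0.044 and 0.030, but after quantile normalization -0.0078 and -0.013. Between treated animals and wild type the medians were -0.013 for the members, -0.0104 for mitochondrial ribosomal proteins and 0.047 for proteasome subunits. All 3 families share the vehicle Tg2576 animals, and the difference between families was not tested.

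Cell type markers moved in both directions. Astrocyte markers had a median of -0.17 for genotype, with 11 of 12 below 0, and 0.12 for drug, with 4 of 12 below 0. Their summed signal ran from 12990 to 16430 in wild type, from 12390 to 14240 in vehicle Tg2576 and from 13410 to 16740 with TO901317. Aqp4, the astrocyte marker of smallest p for drug, had -0.34 (adjusted p 0.0748 in limma), opposite in sign to the median. Slc4a4, a bicarbonate transporter of astrocytes, fell in vehicle Tg2576 (log2 difference -0.27, adjusted p 0.00177 in limma) and was lower in treated animals than in wild type too (-0.29, adjusted p 0.000346). Oligodendrocyte markers had a median of -0.16 for genotype, with 10 of 11 below 0, and 0.11 for drug, with 2 of 11 below 0. Their sums ran from 9714 to 15390, 7507 to 14340 and 10260 to 14510 in the same order of groups. Across animals the astrocyte and oligodendrocyte lists gave r = 0.505 and r = 0.485 with the members' mean deviation.

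With the choroid plexus, oligodendrocyte and astrocyte scores as covariates, the members' median genotype difference was 0.048 in place of -0.044. Then 10 of 46 lay below 0 in place of 39. The median drug difference was then -0.0052 in place of 0.030. 0 members passed in either fit. The other marker lists had r from -0.103 (CA pyramidal cells) to 0.367 (interneurons) over 33 animals. Within groups these values differed: CA pyramidal markers had -0.464 in wild type, 0.838 in vehicle Tg2576 and -0.384 in treated animals, and interneuron markers 0.333, 0.725 and 0.146. Meningeal markers had a median of 0.45 for genotype, with 2 of 12 below 0, and -0.19 for drug, with 12 of 12 below 0. Dentate granule cell markers had -0.19 for genotype and 0.033 for drug. Among these markers Tdo2, of dentate granule cells, fell with genotype (-0.77, adjusted p 0.00128), Slco1a4, of endothelium, rose with TO901317 (0.42, adjusted p 0.0123) and Npy, of interneurons, was lower in treated animals than in wild type (-0.55, adjusted p 0.00374, all in limma). Their lists were mixed in the same comparisons. Below 0 lay 7 of 10 dentate granule cell markers, 3 of 11 endothelial markers (median 0.17) and 6 of 10 interneuron markers (median -0.0285). None of the 5 blood cell markers named on the array passed the filter.

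Several probe sets of one gene often disagreed. Of the 46 tested members, 20 had more than 1 single-gene probe set past the filter, with 47 further probe sets in all. Of these 47, 15 had the opposite sign to the probe set used in the genotype comparison, 16 in the drug comparison and 23 between treated animals and wild type. Rpl27 read 0.040 for genotype where its others read -0.040 and -0.086, and Rps18 read -0.081 where its others read 0.0015 and -0.014. Rpl41 read -0.099, and its second bright probe set -0.13. Of the members, 34 have pseudogene symbols in the RefSeq table (121 in all), and 14 of the tested members were read by a probe set of a type that can bind several transcripts (12 with suffix x and 2 with suffix s). Signal from near-identical copies could therefore not be told apart.

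The naming rule reached only part of the ribosome. Of 84 protein-coding symbols of this form in the RefSeq table, 48 were members and 28 were named only beside other genes on their probe sets. Rpl3, Rpl10 and Rplp1 were among the latter and are not analysed here.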

How the data were processed

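Biotin-labelled RNA of the right hippocampus was hybridised to 1 array per animal, per the labels. The authors deposited intensity values on a linear scale made with MAS5, per the submitters' processing notes. No MAS5 version or setting is given in the sources used here. Of 45101 probe sets, 64 were controls, 34945 named 1 gene in the platform annotation, 932 several and 9160 none. The lowest 40% by mean log2(signal + 16) were left out. Fold changes on this scale understate changes of dim genes. The model, run in R 4.3.3 with limma 3.58.1, gave each of the 3 groups its mean over 33 arrays and used eBayes (trend and robust), with Benjamini-Hochberg adjustment over 12760 genes and a limit of 0.05. The fit was tested on simulated data. The members and all lists were chosen with earlier results of these data known. Genes named were, per comparison, the 5 highest and 5 lowest members, fixed landmarks and paralogues, the 5 members of largest and of smallest SD, and each list's passing genes or its gene of smallest p. A few others were chosen after their values were seen. Alternatives covered the pseudocount, the filter, normalization, probe set choice, the arrays in the fit, covariates, the variance model, a rank-sum test and each array left out. Marker scores used as covariates were those of choroid plexus, oligodendrocytes and astrocytes only. The number of arrays limits the precision.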

Additional observations from a re-analysis of the deposited data

How the results depend on the processing

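No member passed the test under any of the 51 settings of each comparison. The members' median genotype difference stayed below 0 under 15 of 16 alternatives and with each animal left out (-0.061 to -0.030); with marker scores as covariates it was 0.048. The median drug difference kept its sign under 13 of 16 (lowest -0.013) and with each animal left out (0.017 to 0.045), and that against wild type under 14 of 16 and 31 of 33 single animals. Part of these counts was fixed in advance, because some settings cannot move a median. Fitting only the groups compared, leaving trend and robust out of eBayes and adding the replicate block each returned the main medians unchanged. Leaving out animals of the group not compared cannot change a difference either. Such settings therefore say nothing about how stable a sign is. The pooled SD of the per-animal value was 0.031 after quantile normalization.

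Counts over all genes moved more. For genotype they were 59 with the Gapdh ratio as covariate, 13 with marker scores, 91 with the 99th percentile of signal, 14 by the exact rank-sum test and 23 to 57 with single animals left out (57 without vehicle Tg2576 replicate 1, 51 without wild-type replicate 5). For drug they were 22 with no filter, 65, 56 and 139 with the same 3 covariates, and 20 to 43 with single animals left out (20 and 22 without treated replicates 6 and 1). For treated animals against wild type they were 26 with no filter, 29 without trend and robust, 82 with array weights, 79 with the 99th percentile, 26 by the rank-sum test and 22 to 50 with single animals left out. The covariate of the 99th percentile and the rank-sum test were added after seeing the data.

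Replicate numbers were not taken to pair the animals: correlations of same-numbered animals' deviations ran from -0.103 to 0.224, with 29 of 33 above 0 but 10 above 0.1. An animal correlated best with its own number in 8 of 66 comparisons with another group. Correlations of differently numbered animals were not summarised, so these values do not settle whether the numbers mark pairs. With the replicate block 51 genes were called for genotype, 31 for drug and 65 against wild type, 0 of them members. Members at unadjusted p under 0.05 then went to 3, 7 and 2. The share of all genes at that limit was not computed with the block.

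Directions turned as follows; the cause was not tested. With marker scores the genotype differences became -0.11 (Rpl27a), 0.013 (Rpl41), 0.057 (Rps18), -0.016 (Rps27), 0.017 (Rps28) and -0.18 (Rps4l), and Rps4l against wild type -0.049. Quantile normalization gave Rps28 0.0025 for genotype and -0.0085 for drug. The mean of probe sets gave Rpl27 -0.029 for genotype, and Rps10 -0.021 and Rps9 -0.053 against wild type; without probe sets of suffix x or s Rps9 was -0.099. Rpl27a was -0.060 for genotype with the 99th percentile as covariate. Rps4l was -0.017 for genotype with the Gapdh ratio and -0.057 without vehicle Tg2576 replicates 3 and 4. With single animals left out Rpl27a ran from -0.063 to 0.079 and Rps4l from -0.030 to 0.105 for genotype, and Rps4l from -0.021 to 0.098 against wild type. Members at unadjusted p under 0.05 were also counted. With single animals left out they numbered 0 to 4 for genotype, 0 to 7 for drug and 1 to 3 against wild type. They reached 9 for drug and 4 for genotype with the Gapdh ratio as covariate. Against wild type they reached 6 with the 99th percentile as covariate. The share of all genes at this limit was not computed under these settings, so these counts show nothing particular to the members.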
